A study of Mus musculus with 56 samples.

Results

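The Slc25 genes encode the mitochondrial carrier family, and they were taken here as the protein-coding genes of the deposited count table whose mouse symbol begins with Slc25a and a number. This gave 47 members of 57010 genes in the table. The study measured RNA of the gastrocnemius, a mixed hindlimb muscle, in labelled HuR knockouts and in controls of both sexes, with 56 libraries in 8 groups of 7. HuR is an RNA-binding protein encoded by Elavl1 that binds AU-rich stretches of mRNAs. The 8 groups were ribosomal RNA of female labelled knockouts, female controls, male labelled knockouts and male controls, and total RNA of the same 4 kinds of mice.

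All mice were 20 to 22 weeks old and, per the labels' protocols, carried the ribosomal protein L10A tagged with GFP, switched on by Cre recombinase under the Mlc1f promoter, which is active in skeletal muscle fibres. Labelled knockouts also carried a floxed Elavl1 gene, so that the deletion is limited to cells in which that promoter is active. "Ribosomal RNA" here means RNA recovered with the tagged ribosomes, which are ribosomes of fibres, and "total RNA" means RNA of the whole muscle with its vessels, blood, connective tissue and fat. In bulk samples of this kind, fewer cells of a type and less RNA per cell cannot be told apart.

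Mitochondrial carriers are proteins of the inner mitochondrial membrane that swap or move solutes between the cytosol and the matrix. ADP/ATP and phosphate carriers feed and empty ATP synthase, the oxoglutarate and aspartate-glutamate carriers run the malate-aspartate shuttle, and the carnitine-acylcarnitine carrier brings in long-chain fatty acids for oxidation. Others carry citrate, amino acids, cofactors or iron, and a few family members sit in the outer membrane or in peroxisomes.

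Total libraries held 2.43 to 5.85 M counts on genes and ribosomal libraries 0.16 to 3.58 M, so ribosomal values of rare members rest on few counts. The Slc25 genes together took 0.551 to 1.17% of the counts in ribosomal libraries and 0.512 to 0.647% in total libraries. The level of Elavl1 did not pass the test for a difference in any labelled-knockout comparison. In ribosomal RNA it ran from 79.1 to 138 CPM (counts scaled to library size) in female labelled knockouts and from 65.6 to 107 CPM in female controls, and from 43.5 to 95.8 CPM in male labelled knockouts and 45.1 to 66.1 CPM in male controls. In total RNA it ran from 71.9 to 95.4 CPM in female labelled knockouts and 65.8 to 114 CPM in female controls, and from 51.5 to 97.6 CPM in male labelled knockouts and 71.4 to 122 CPM in male controls. The adjusted p values of edgeR's quasi-likelihood test were 0.206 and 0.234 in ribosomal RNA and 0.969 and 0.477 in total RNA, for females and males in that order. Only 3' ends of transcripts were counted and the labels do not name the floxed exons. A tag outside them would be counted with or without the deletion, so these values cannot check the genotype and the mice are called labelled knockouts throughout.

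Because HuR binds AU-rich stretches, the 3' UTRs (untranslated ends) of the members that changed in a labelled-knockout comparison were searched for the pentamer ATTTA and for the longer TATTTAT, on the transcript strand. Of 14 such members 8 held TATTTAT in the longest 3' UTR of the GENCODE M21 annotation (GRCm38), 3 held ATTTA only and 3 (Slc25a1, Slc25a35 and Slc25a47) held neither. Members that did not change, such as Slc25a4, Slc25a11 and Slc25a12, also held TATTTAT in the whole 3' UTR. A share over all genes was not computed for whole 3' UTRs, so these counts do not set the changed members apart. The lines below give 30 bases around the first match for 10 of them, 5' to 3' in DNA letters, with the match in capitals, so that the kind of sequence can be seen beside the values that follow.
Slc25a20: ttgaaacttgaATTTAgaggatttccagag
Slc25a34: gcaatgcctacATTTAaagattcccattag
Slc25a42: tggggttcttgATTTAgggtctttgagaca
Slc25a44: tgcctggggtcTATTTATttttttatgcct
Slc25a37: ttatttaacttTATTTATggataattatgt
Slc25a30: cctgtgctccaTATTTATtcgtgagctatg
Slc25a25: tgcttggagccTATTTATtttgtatttatt
Slc25a13: agcaaagtataTATTTATaaaaatgaaaaa
Slc25a16: ctgctccaacaTATTTATtaatggcaaacg
Slc25a17: tttaagaaagcTATTTATtttgtgggggaa

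In the last 500 bases of the 3' UTR, ATTTA was present in 19 of 34 tested members with a UTR of that length (55.9%) and in 58.9% of 8975 tested genes of all kinds. TATTTAT, every match of which also holds ATTTA, was present in 7 of the 34 (20.6%) and in 14.9% of the 8975. Of the 14 members that changed, 6 held ATTTA and 4 held TATTTAT in that window. A match is a stretch of letters, not a measured HuR site.

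Slc25a34 and Slc25a20 were lower in female labelled knockouts in both RNA types, as described below, and their promoters are given for comparison. They are RefSeq sequences of GRCm38.p6 from 250 bases before to 50 bases after the gene's start, at chr4:141623785-141624084 (minus strand) for Slc25a34 and chr9:108661886-108662185 (plus strand) for Slc25a20. Capitals mark TGACCT, the reverse complement of AGGTCA, which is the core hexamer of many nuclear receptor sites.
Slc25a34: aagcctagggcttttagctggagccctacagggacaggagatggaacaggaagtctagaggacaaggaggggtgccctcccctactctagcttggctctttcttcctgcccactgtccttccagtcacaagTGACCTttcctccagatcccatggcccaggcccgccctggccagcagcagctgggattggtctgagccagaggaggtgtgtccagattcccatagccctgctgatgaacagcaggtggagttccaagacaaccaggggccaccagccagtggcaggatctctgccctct
Slc25a20: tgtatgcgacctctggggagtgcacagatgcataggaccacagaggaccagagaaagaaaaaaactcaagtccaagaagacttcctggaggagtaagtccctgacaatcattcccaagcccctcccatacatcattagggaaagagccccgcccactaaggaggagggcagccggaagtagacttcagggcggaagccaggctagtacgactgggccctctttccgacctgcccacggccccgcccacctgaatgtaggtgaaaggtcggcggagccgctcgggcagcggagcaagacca

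Searched on both strands, AGGTCA was found in 4 of 36 member promoters present in that table (11.1%), Slc25a34 among them and Slc25a20 not, against 16.04% of 27025 promoters. The GC box GGGCGG was found in 30 of the 36 (83.3%) and in 35.9% of all promoters in the table. Unlike the 3' UTR shares above, these promoter shares were not limited to genes tested here. A share over tested genes was not computed, so these values do not set the family apart from them.

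The family was dominated by a handful of energy carriers. Slc25a4, the ADP/ATP carrier of heart and muscle, averaged 3332 CPM in total RNA of the 14 control libraries, which was 56.4% of the family's summed mean. Slc25a3, the phosphate carrier that supplies ATP synthase, averaged 814 CPM, and the malate-aspartate shuttle carriers Slc25a12 (aspartate-glutamate) and Slc25a11 (oxoglutarate) averaged 360 and 290 CPM. Since each transcript gives 1 tag at its 3' end, these counts are not divided by length and can be set beside each other between genes.

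The next 6 members lay close together in total RNA of controls. They were the carnitine-acylcarnitine carrier Slc25a20 (109 CPM), the pyrimidine nucleotide carrier Slc25a36 (107 CPM), the outer membrane protein Slc25a46, which acts in mitochondrial dynamics (97.3 CPM), the glutathione carrier Slc25a39 (91.9 CPM), the NAD carrier Slc25a51 (80.7 CPM) and Slc25a16 (58.9 CPM), which is linked to coenzyme A in mitochondria. Slc25a20 and Slc25a36 differed by less than the spread between libraries, since Slc25a20 had an SD of 12.6 CPM in female and 11.3 CPM in male controls.

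At the low end, 8 members did not pass the filter on low counts in total RNA. Slc25a54 had 0 counts, and Slc25a2, Slc25a18, Slc25a21, Slc25a31, Slc25a41, Slc25a43 and Slc25a48 had 5 to 110 counts summed over all 56 libraries. Tests were therefore made on 39 members in total RNA and on 30 in ribosomal RNA, where Slc25a1, Slc25a10, Slc25a13, Slc25a14, Slc25a27, Slc25a35, Slc25a40, Slc25a45 and Slc25a53 were too rare as well. Slc25a5, the ADP/ATP carrier of most other tissues, has processed copies in the genome, and reads that fit several places may be missing from its 33.2 CPM.

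**Figure D1:**
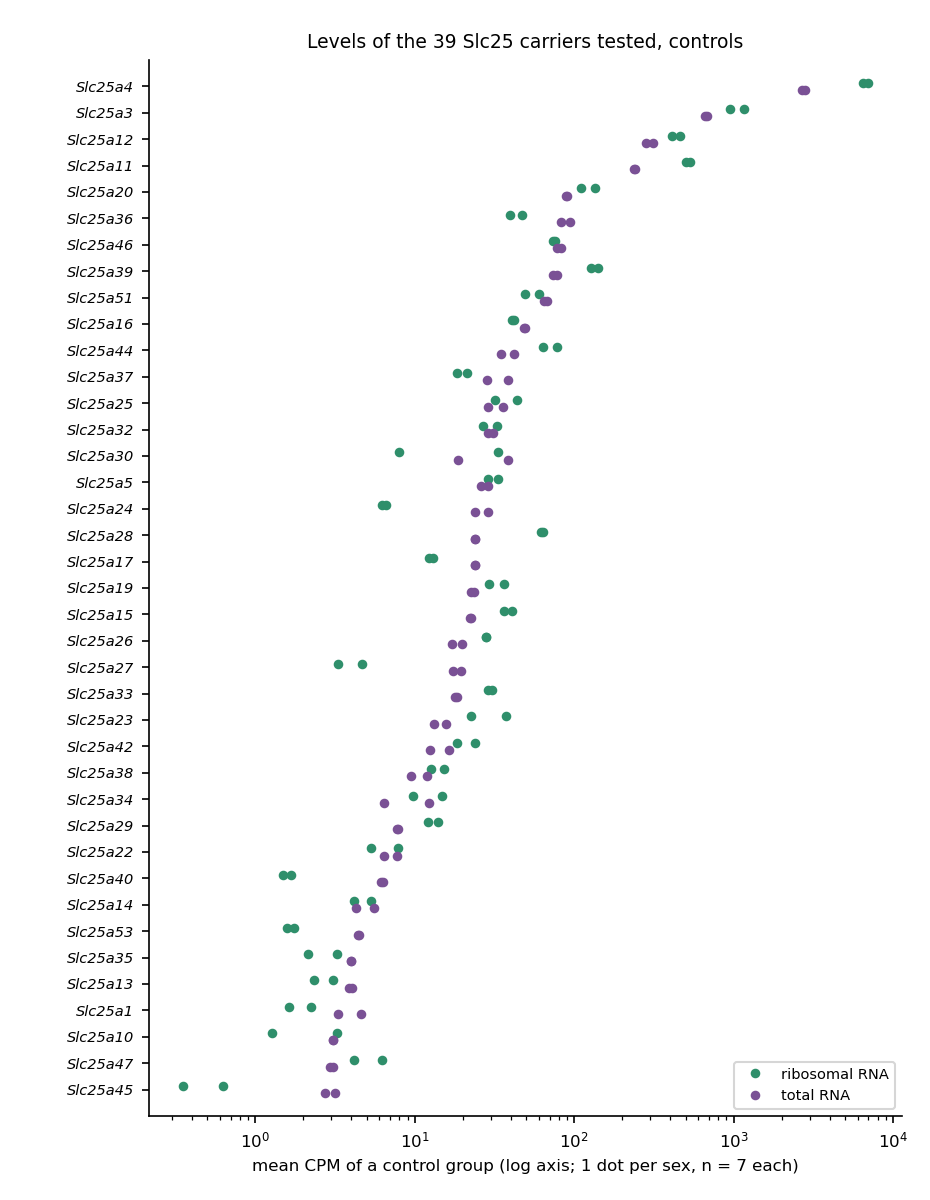
Mean CPM (log axis) of the 39 carriers tested, in ribosomal RNA (green) and total RNA (purple) of controls under a common scaling, with 1 dot for each sex (n = 7 libraries). Slc25a4 stands far above the rest, and Slc25a24, Slc25a27, Slc25a40 and Slc25a45 lie lower in ribosomal than in total RNA.

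Over the 4 comparisons of labelled knockouts with controls, 14 members changed in at least 1, 6 in at least 2 and Slc25a20 in 3. The most abundant carriers did not pass the test in any of them. Slc25a4 had 5045 to 6566 CPM in ribosomal RNA of female labelled knockouts and 4392 to 6773 CPM in female controls, and the groups overlapped fully. Its log2 fold changes were 0.04 ± 0.142 (SE) and 0.14 ± 0.142 in ribosomal RNA and −0.01 ± 0.0805 and 0.08 ± 0.0805 in total RNA, in females and males in that order. Slc25a3 ran lower in ribosomal RNA of female labelled knockouts, with 523, 609 and 752 CPM as the lowest, median and highest, against 562, 777 and 944 CPM in female controls. That difference missed the threshold after adjustment (−0.32 ± 0.138, adjusted p = 0.114). For Slc25a11 and Slc25a12 the log2 fold changes lay between −0.14 and 0.10 in all 4 comparisons.

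**Figure D2:**
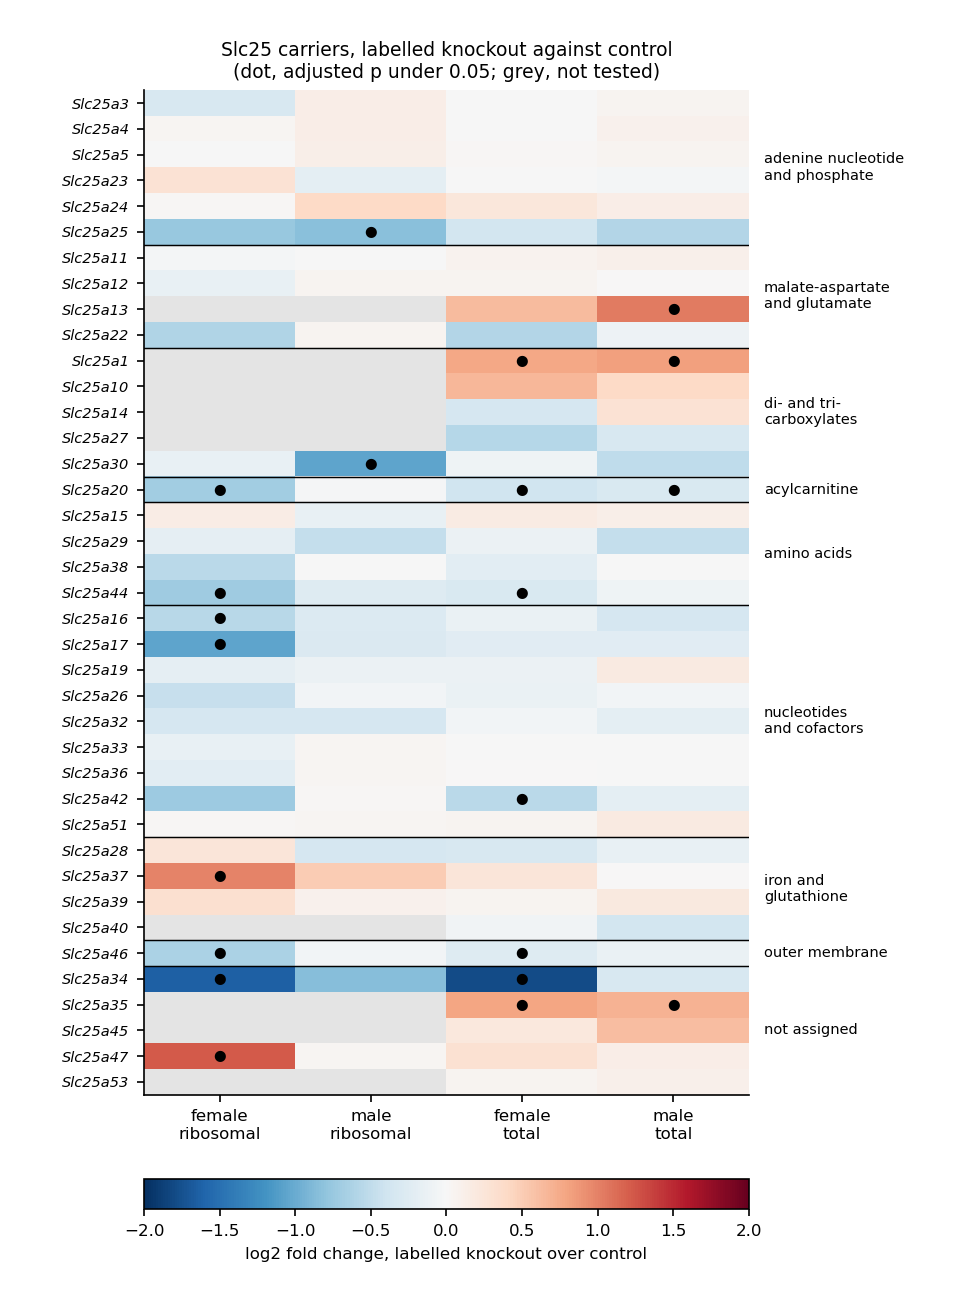
Log2 fold change of labelled knockouts over controls for the 39 members tested, by RNA type and sex, grouped by what the carriers move. Dots mark members past an adjusted p of 0.05 and grey cells were not tested. Slc25a20 carries 3 dots, and the abundant Slc25a3, Slc25a4, Slc25a11 and Slc25a12 carry none.

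In ribosomal RNA of females, 8 of 30 members changed, 2 higher and 6 lower in labelled knockouts. This is 26.7% of the members tested, beside 16.8% of the 9098 genes tested in that comparison (8.44% higher and 8.41% lower). The members' median log2 fold change was −0.18, against −0.02 over all genes tested. The fall was clearest for Slc25a20, and the others that fell carry amino acids or cofactors, sit in the outer membrane or have no established substrate. Of the 8 calls, those of Slc25a16, Slc25a17, Slc25a46 and Slc25a47 were lost when any of 5, 3, 2 and 1 of the 14 libraries was left out, with adjusted p of at most 0.112, 0.126, 0.0780 and 0.0590.

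Slc25a20, which takes acylcarnitines into the matrix, had 51.0, 65.6 and 82.5 CPM (lowest, median and highest of 7) in ribosomal RNA of female labelled knockouts, against 91.5, 108 and 125.5 CPM in female controls. All 7 labelled knockouts lay below all 7 controls, at a log2 fold change of −0.70 ± 0.130 (adjusted p = 0.000267).

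Slc25a34, a carrier with no established substrate, had 0, 3.67 and 8.14 CPM in ribosomal RNA of female labelled knockouts, against 6.61, 12.7 and 17.8 CPM in female controls. Of the labelled knockouts 6 lay below every control. The log2 fold change was −1.64 ± 0.439 (adjusted p = 0.00878), on at most 5 counts in any labelled-knockout library.

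Slc25a44, which carries branched-chain amino acids, had 18.3, 35.5 and 51.4 CPM in ribosomal RNA of female labelled knockouts, against 18.4, 57.0 and 63.8 CPM in female controls. The groups overlapped through control 19, the lowest of its group, while the other 6 controls lay above all labelled knockouts. The log2 fold change was −0.71 ± 0.185 (adjusted p = 0.00754).

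Slc25a46 had 16.5, 32.7 and 57.0 CPM in ribosomal RNA of female labelled knockouts, against 40.4, 60.2 and 85.7 CPM in female controls, with 4 labelled knockouts below every control (−0.63 ± 0.191, adjusted p = 0.0203). Slc25a17, a carrier of peroxisomes for coenzyme A and related cofactors, had 0, 4.44 and 8.56 CPM in female labelled knockouts, against 6.18, 9.80 and 14.7 CPM in female controls (−1.05 ± 0.339, adjusted p = 0.0283). Slc25a16 overlapped most, with 13.6, 23.8 and 31.9 CPM in female labelled knockouts and 14.7, 35.0 and 49.7 CPM in female controls (−0.55 ± 0.175, adjusted p = 0.0270).

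Both members that rose are known best from cells other than muscle fibres. Slc25a37 is mitoferrin, which imports iron for haem synthesis and is most abundant in developing red cells. It had 21.4, 31.4 and 59.6 CPM in ribosomal RNA of female labelled knockouts, against 7.10, 16.5 and 21.2 CPM in female controls, with every labelled knockout above every control. This was a log2 fold change of 0.99 ± 0.214 (adjusted p = 0.00132). Slc25a47, a carrier described mainly in liver, had 2.71, 10.8 and 15.5 CPM in female labelled knockouts, against 0, 2.91 and 6.69 CPM in female controls, with 5 labelled knockouts above all controls (1.23 ± 0.367, adjusted p = 0.0187). In controls on a common scale, Slc25a47 averaged 4.17 CPM in ribosomal and 2.96 CPM in total RNA of females. In male controls it averaged 6.225 and 3.06 CPM. Slc25a37 averaged 18.5 and 28.4 CPM in female and 21.1 and 38.6 CPM in male controls, in the same order. All 5 liver and all 5 erythroid markers tested were lower in ribosomal than in total RNA of controls.

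Many markers of other cells, and some of fibres, were higher in the same libraries. Of the 8 skeletal muscle fibre markers 2 rose and none fell (median 0.27). Their sums were 101500 to 164700 CPM in female labelled knockouts and 57110 to 175400 CPM in female controls. All 3 smooth muscle markers tested rose. All 5 erythroid markers rose, and their sum ran from 277 to 1080 CPM in ribosomal RNA of female labelled knockouts and from 127 to 250 CPM in female controls. The 6 liver markers summed to 11.7 to 96.5 CPM and 1.03 to 14.2 CPM in the same groups, with Serpina1a at 0 in controls. All 6 fibroblast and matrix markers rose (291 to 923 CPM in female labelled knockouts, 154 to 279 CPM in female controls), as did all 4 endothelial markers tested (31.9 to 145 CPM and 25.2 to 40.1 CPM). Of the 5 slow fibre markers 4 rose (median 0.86), with sums of 2390 to 5260 CPM in female labelled knockouts and 1285 to 3205 CPM in female controls, while none of the 4 adipocyte markers tested passed. Transcripts encoded in mitochondrial DNA, which cytosolic ribosomes do not translate, summed to 4976 to 23900 CPM in female labelled knockouts and 1318 to 6211 CPM in female controls. The part of these markers and transcripts in the carriers' changes was not tested.

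Reads that fell in no annotated feature were also more frequent, at 6.53 to 12.5% of counted reads in ribosomal libraries of female labelled knockouts and 5.001 to 9.999% in those of female controls, where only controls 18 and 19 exceeded 5.46%. These 2 controls had 125.5 and 124.8 CPM of Slc25a20, the 2 highest values of the 7 controls. For Slc25a44 they had 52.1 and 18.4 CPM, of which the second lies within the range of the labelled knockouts, and for Slc25a46 54.4 and 40.4 CPM, which both do. With this share as a covariate, added after the values were seen, 2 of the 8 members kept their call, Slc25a20 and Slc25a37. The log2 fold changes of the others were then −0.10 for Slc25a46 (adjusted p = 0.839), −0.29 for Slc25a44 (0.407) and −0.36 for Slc25a16 (0.341). Slc25a34 had −1.31 (adjusted p = 0.165), Slc25a17 had −0.98 (0.167) and Slc25a47 had 1.03 (0.187).

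**Figure D3:**
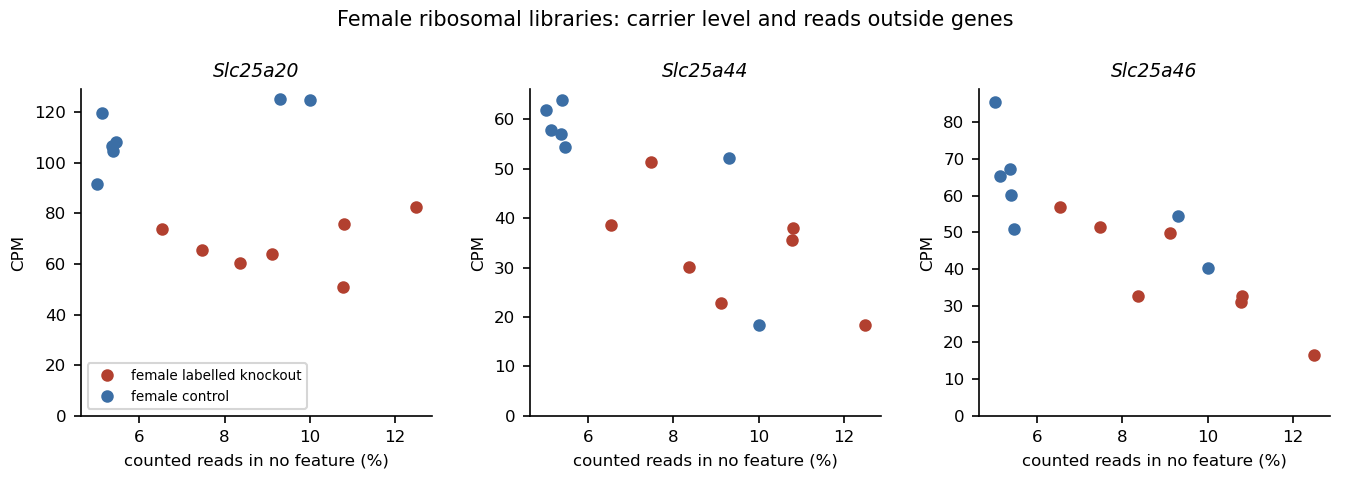
CPM of Slc25a20, Slc25a44 and Slc25a46 against the percent of counted reads in no feature, for the 7 female labelled-knockout (red) and 7 female control (blue) ribosomal libraries. The groups do not overlap in the level of Slc25a20. The control with the highest share has the lowest Slc25a44 and Slc25a46 of the controls. Most controls have a lower share than every labelled knockout, so few libraries of both groups can be compared at a like share.

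In ribosomal RNA of males, 2 of 30 members changed, both lower, which is 6.67% of those tested beside 8.96% of all 9098 genes (4.09% higher and 4.87% lower). Slc25a30, known as kidney mitochondrial carrier and a transporter of small anions, had 11.3, 13.7 and 29.2 CPM in male labelled knockouts, against 7.80, 27.4 and 47.8 CPM in male controls. Of the controls 5 lay above at least 6 of the 7 labelled knockouts, and the other 2 lay below every labelled knockout. Slc25a30 changed by −1.06 ± 0.251 on the log2 scale (adjusted p = 0.00500).

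Slc25a25, which exchanges ATP-Mg for phosphate in response to calcium, had 9.46, 14.6 and 19.8 CPM in ribosomal RNA of male labelled knockouts, against 11.1, 23.1 and 53.9 CPM in male controls. The control values spread widely, and 2 labelled knockouts lay below all of them. The log2 fold change was −0.84 ± 0.267 (adjusted p = 0.0428), and leaving out any of 8 libraries raised the adjusted p above the threshold, with a range of 0.00976 to 0.204 over the 14 libraries. The erythroid markers, all 5 of which rose in ribosomal RNA of males too, summed to 337 to 540 CPM in male labelled knockouts and 150 to 245 CPM in male controls. Of the 5 slow fibre markers 2 rose, with sums of 1307 to 2051 CPM in male labelled knockouts and 810.3 to 1643 CPM in male controls. In females Slc25a25 had −0.76 ± 0.291 (adjusted p = 0.0671).

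Slc25a20 had nearly equal levels in ribosomal RNA of males, at 58.4, 87.0 and 99.0 CPM in labelled knockouts and 70.1, 90.3 and 110 CPM in controls (−0.03, adjusted p = 0.949). The difference between the female and male effects was tested itself. At −0.67 ± 0.176 (adjusted p = 0.0287) Slc25a20 was the only member past the threshold in that test, 1 of 30 members beside 3.43% of all genes. It did not pass with the share of reads in no feature as a covariate, where the difference was −0.64 (adjusted p = 0.0983).

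The other members that fell in females had these levels in ribosomal RNA of males. Slc25a34 had 0, 4.002 and 8.49 CPM in male labelled knockouts, against 3.49, 7.44 and 17.8 CPM in male controls (−0.85 ± 0.344, adjusted p = 0.123). Slc25a44 had 48.4, 56.6 and 61.5 CPM in male labelled knockouts, against 29.2, 68.9 and 73.9 CPM in male controls (−0.26, adjusted p = 0.334). For Slc25a46 the values were 43.8, 58.6 and 73.3 CPM in male labelled knockouts, against 27.3, 65.2 and 77.1 CPM in male controls (−0.05, adjusted p = 0.911). All 3 sets overlapped, and none of these differences passed the test. Slc25a37, which rose in females, had 7.30, 23.9 and 33.3 CPM in male labelled knockouts, against 9.75, 18.1 and 20.9 CPM in male controls (0.50 ± 0.185, adjusted p = 0.0844).

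In total RNA of females, 7 of 39 members changed, 2 higher and 5 lower, which is 17.9% beside 8.49% of 12860 genes (3.79% higher and 4.7% lower). The median log2 fold change of the members was −0.01, and over all genes it was 0.01. The erythroid markers rose here as well, 5 of 5, with sums of 813 to 2206 CPM in female labelled knockouts and 692 to 1094 CPM in female controls. Of the 6 matrix markers 4 rose, with sums of 2452 to 4028 CPM in female labelled knockouts and 1476 to 2787 CPM in female controls. None of the 6 endothelial and 6 mitochondrially encoded genes tested passed. The part of these markers in the carriers' values was not tested.

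Slc25a34 fell most. It had 2.72, 4.47 and 5.04 CPM in total RNA of female labelled knockouts, against 8.66, 15.7 and 20.6 CPM in female controls, without overlap. Its log2 fold change was −1.80 ± 0.258 (adjusted p = 4.01e-05), and no library left out and no alternative changed the call. In males its levels were 3.43, 6.14 and 11.7 CPM in labelled knockouts and 3.22, 8.05 and 12.01 CPM in controls (−0.31 ± 0.254, adjusted p = 0.422).

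The difference between the sexes in the Slc25a34 effect was −1.48 and did not pass adjustment over all genes (unadjusted p = 0.000304, adjusted p = 0.177). In that test edgeR called 0 of 12860 genes (0%), and 1 of 39 members, Slc25a34, had an unadjusted p under 0.05. DESeq2 called 6 genes and limma-voom 0, with no member among them.

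Slc25a20 had 64.0, 81.2 and 96.8 CPM in total RNA of female labelled knockouts, against 91.4, 108 and 127 CPM in female controls. Of the labelled knockouts 5 lay below every control (−0.40 ± 0.0948, adjusted p = 0.00752). Slc25a42, a coenzyme A carrier, had 11.7, 12.9 and 16.9 CPM in female labelled knockouts, against 14.1, 20.3 and 27.7 CPM in female controls (−0.54 ± 0.149, adjusted p = 0.0196). Slc25a44 had 37.4, 40.7 and 45.3 CPM in female labelled knockouts, against 41.4, 51.1 and 64.0 CPM in female controls, and Slc25a46 had 74.9, 82.03 and 97.5 CPM in female labelled knockouts, against 91.7, 100.2 and 108 CPM in female controls. Both genes, Slc25a44 (−0.30 ± 0.0873, adjusted p = 0.0263) and Slc25a46 (−0.25 ± 0.0782, adjusted p = 0.0392), fell by smaller steps, with 4 and 5 labelled knockouts below every control. The calls of Slc25a42, Slc25a44 and Slc25a46 were lost when any of 3, 4 and 11 of the 14 libraries was left out, with adjusted p of at most 0.0664, 0.0947 and 0.0979. All 3 also lost theirs without the total libraries with over 19% of reads in no feature (adjusted p = 0.0598, 0.0849 and 0.0796). Over the 8 alternatives tried, the calls were lost in 1, 5 and 3, in that order.

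Slc25a35, a relative of Slc25a34 whose substrate is not established, moved the other way. It had 5.66, 8.85 and 10.7 CPM in total RNA of female labelled knockouts, against 3.74, 4.97 and 5.78 CPM in female controls, and 6 labelled knockouts lay above every control (0.78 ± 0.187, adjusted p = 0.00744). The gene overlaps Rangrf on the opposite strand in the GRCm38 annotation, and where counting ignored strand their reads cannot be told apart. Among the other members that changed, Slc25a16, Slc25a25, Slc25a37, Slc25a46 and Slc25a47 also overlap annotated genes. Slc25a1, the citrate carrier that supplies cytosolic acetyl-CoA, had 4.08, 9.66 and 14.1 CPM in female labelled knockouts, against 3.74, 4.99 and 9.95 CPM in female controls (0.78 ± 0.243, adjusted p = 0.0408), and leaving out any of 9 libraries ended that call.

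In total RNA of males, 4 of 39 members changed, 3 higher and 1 lower, which is 10.3% beside 14.2% of 12860 genes (6.83% higher and 7.36% lower). Reads in no feature took 9.78 to 13.9% in these male labelled knockouts and 12.4 to 23.4% in male controls. With this share as a covariate, 2 of 39 members and 552 genes were called, against 1824 genes without it. Leaving out total libraries with over 19% of such reads keeps 4 male controls and all 7 male labelled knockouts. All 5 erythroid and all 6 matrix markers rose in the same comparison, with erythroid sums of 1499 to 2597 CPM in male labelled knockouts and 728 to 1063 CPM in male controls. Both kidney markers tested rose as well (median 3.12). None of the 5 liver markers tested passed (median 1.51), with 4 at an unadjusted p under 0.05. The part of these markers in the carriers' values was not tested. Slc25a35 had 5.83, 7.83 and 9.51 CPM in male labelled knockouts, against 2.74, 4.601 and 7.66 CPM in male controls (0.70 ± 0.189, adjusted p = 0.0144). Slc25a1 had 4.27, 6.62 and 9.51 CPM in male labelled knockouts, against 2.49, 3.61 and 6.44 CPM in male controls (0.82 ± 0.258, adjusted p = 0.0322). The call of Slc25a1 was lost when any of 5 libraries was left out. It was also lost with the share of reads in no feature as a covariate (0.57, adjusted p = 0.2615). The same held without the total libraries with over 19% of such reads (adjusted p = 0.0707) and in a fit of all 56 libraries (0.0503). For Slc25a35 and Slc25a1, 5 of 7 male labelled knockouts lay above every male control.

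Slc25a20 had 77.3, 89.7 and 108 CPM in total RNA of male labelled knockouts, against 96.2, 106 and 125 CPM in male controls, with 6 labelled knockouts below every control. The log2 fold change was −0.30 ± 0.0945 (adjusted p = 0.0321). The adjusted p ranged from 0.0188 to 0.0838 with 1 library left out, and 6 of the 14 libraries ended the call when left out, as did the share of reads in no feature as a covariate (adjusted p = 0.0966).

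Slc25a13, the aspartate-glutamate carrier of liver and kidney, had 5.78, 7.83 and 24.2 CPM in total RNA of male labelled knockouts, against 3.68, 4.88 and 5.62 CPM in male controls, without overlap. The log2 fold change was 1.05 ± 0.269 (adjusted p = 0.0109). The highest value came from labelled knockout 6, whose 5 kidney markers summed to 1048 CPM, against 6.46 to 81.6 CPM in the other 6 male labelled knockouts and 2.44 to 97.4 CPM in male controls. Without that library the log2 fold change was 0.68 (adjusted p = 0.0413), and without the total libraries with over 19% of reads in no feature it was 0.92 (adjusted p = 0.0971). The next highest value, 12.8 CPM, came from labelled knockout 14, which had the highest liver marker sum of its group (355 CPM). Whether these marker sums bear on the Slc25a13 values was not tested.

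The adipocyte markers, which can bear on a lipogenic gene such as Slc25a1, summed to 627 to 1216 CPM in total RNA of female labelled knockouts and 624 to 1069 CPM in female controls. In males they summed to 796 to 1111 CPM in labelled knockouts and 497 to 989 CPM in controls, and 1 of the 5 markers rose in each sex. Their part in the Slc25a1 values was not tested.

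**Figure D4:**
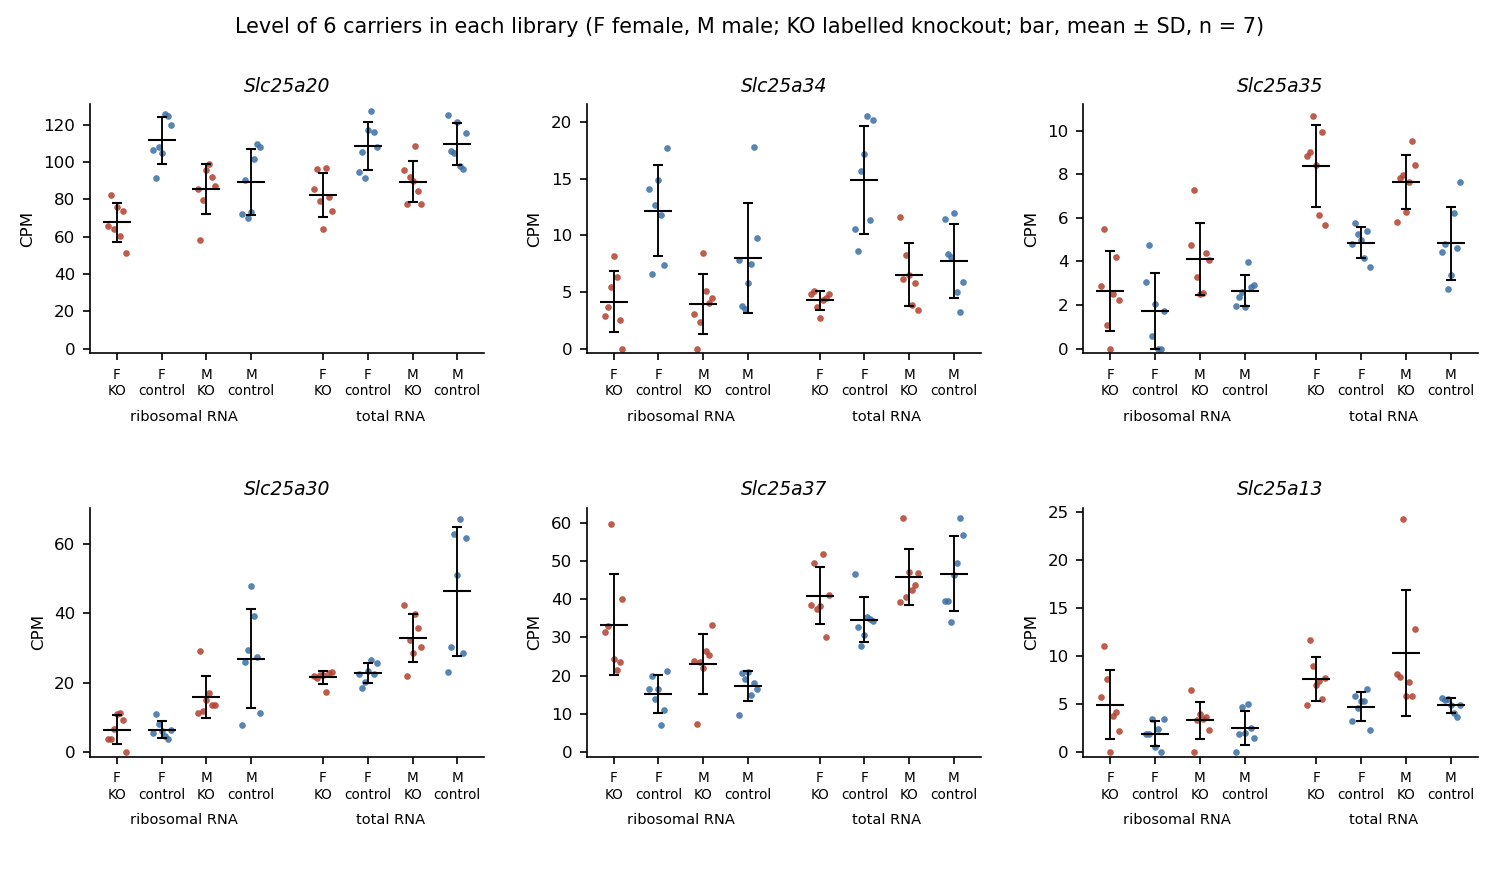
CPM of Slc25a20, Slc25a34, Slc25a35, Slc25a30, Slc25a37 and Slc25a13 in each library, with labelled knockouts (KO, red) to the left of controls (blue) and ribosomal to the left of total RNA. Bars give mean ± SD (n = 7). Female Slc25a34 in total RNA and female Slc25a20 in ribosomal RNA show no overlap between the groups, and 1 male labelled knockout stands out at 24.2 CPM of Slc25a13.

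The members can also be counted by what they carry, beside the 16.8 and 8.96% of all genes called in ribosomal RNA and the 8.49 and 14.2% in total RNA, of females and males in that order. The groups are small, and differences between them were not tested. None of the 9 nucleotide and cofactor carriers tested rose in any of the 4 comparisons, and 2 fell in ribosomal and 1 in total RNA of females. Of the 6 adenine nucleotide and phosphate carriers tested, only Slc25a25 changed, in ribosomal RNA of males. Of the 4 amino acid carriers tested, only Slc25a44 changed, and only in females, where the difference from males was not past the threshold (female minus male −0.45 in ribosomal and −0.22 in total RNA). Of the iron and glutathione carriers, only Slc25a37 changed. In total RNA it had 30.1 to 51.7 CPM in female labelled knockouts and 27.9 to 46.5 CPM in female controls (0.24 ± 0.134, adjusted p = 0.266).

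Genes that work beside the family were counted in the same way. Among 5 proteins of the carrier fold with other symbols, such as the uncoupling proteins, none of 3 tested in ribosomal and 4 in total RNA passed. Of the genes of carnitine transfer, Cpt2, which turns imported acylcarnitines back into acyl-CoA, fell in total RNA of females (−0.40 ± 0.110, adjusted p = 0.0208), 1 of 4 tested (25%, beside 8.49% of all genes), with 45.6, 50.4 and 69.1 CPM in labelled knockouts and 63.9, 72.5 and 85.2 CPM in controls. It did not pass in total RNA of males (−0.09, adjusted p = 0.624). None of the 3 outer membrane channels (VDAC genes) passed in any of the 4 comparisons of labelled knockouts.

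In ribosomal RNA of females, where 16.8% of all genes were called, the malate-aspartate shuttle enzymes Got1 (−0.40 ± 0.127, adjusted p = 0.0273) and Mdh1 (−0.38 ± 0.127, adjusted p = 0.0353) fell, 2 of 6 tested (33.3%) on a list with the glycerol phosphate shuttle. Of 13 inner membrane transporters outside the family, both subunits of the pyruvate carrier fell, Mpc1 (−0.49 ± 0.131, adjusted p = 0.00869) and Mpc2 (−0.48 ± 0.149, adjusted p = 0.0232), with the calcium uniporter regulator Smdt1 (−0.45 ± 0.128, adjusted p = 0.0130), and the serine transporter Sfxn1 rose (1.06 ± 0.360, adjusted p = 0.0379), which makes 4 of 13 (30.8%). Mpc1 had 87.8, 119 and 145 CPM in female labelled knockouts, against 154, 169 and 180 CPM in female controls, without overlap. In total RNA, the calcium uptake regulator Micu2 fell in males (−0.26 ± 0.0770, adjusted p = 0.0253), 1 of 16 tested (6.25%, beside 14.2% of all genes), and none passed in females.

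Carriers reach the inner membrane through the outer membrane receptor Tomm70a, small chaperones of the intermembrane space and the TIM22 complex. Of 10 genes of that route tested in ribosomal RNA, the chaperone Timm8b fell in females (−1.03 ± 0.240, adjusted p = 0.00288), 1 of 10 beside 16.8% of all genes. In males Tomm70a rose (0.50 ± 0.124, adjusted p = 0.00713) and the chaperone Timm13 fell (−0.35 ± 0.108, adjusted p = 0.0367), 2 of 10 beside 8.96%. Of 11 tested in total RNA none passed in either sex, beside 8.49% of all genes in females and 14.2% in males.

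Whether the effect in ribosomal RNA differed from that in total RNA was tested in a fit of all 56 libraries. In females 0 of 39 members passed, beside 3.46% of 12546 genes, with 8 members at an unadjusted p under 0.05. In males 0 of 39 passed, beside 0.128%, with 3 at an unadjusted p under 0.05. In females DESeq2 called 0 and limma-voom 1 member, and in males DESeq2 called 1 and limma-voom 0. The lowest adjusted p in females was that of Slc25a17 (−0.91, adjusted p = 0.0852), whose total levels of 20.4 to 28.9 CPM in female labelled knockouts and 24.9 to 34.1 CPM in female controls differed less than its ribosomal levels.

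Controls of the 2 sexes differed in a few carriers. In ribosomal RNA 1 of 30 members differed, beside 7.63% of 9098 genes, and in total RNA 4 of 39, beside 8.70% of 12860. Slc25a30 was higher in males in both. In total RNA it had 23.1, 51.0 and 67.1 CPM in male controls, against 18.6, 22.5 and 26.6 CPM in female controls (1.02 ± 0.184, adjusted p = 0.000453). In ribosomal RNA it had 7.80, 27.4 and 47.8 CPM in male controls, against 3.67, 6.18 and 10.8 CPM in female controls (1.94 ± 0.285, adjusted p = 8.67e-06). In each RNA type 6 of 7 male controls lay above every female control. The 5 slow fibre markers were all lower in male controls in both RNA types, with medians of −0.77 in ribosomal and −0.82 in total RNA. Their sum ran from 810.3 to 1643 CPM in male controls and 1285 to 3205 CPM in female controls in ribosomal RNA, and from 547.7 to 998.4 CPM in male controls and 1046 to 1412 CPM in female controls in total RNA. Of the adipocyte markers 1 was lower in each RNA type, and 2 of 6 matrix and 1 of 4 macrophage markers were higher in total RNA. The part of these markers in the carriers' values was not tested.

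In total RNA Slc25a34 was lower in male controls, with 3.22, 8.05 and 12.01 CPM, against 8.66, 15.7 and 20.6 CPM in female controls (−0.89 ± 0.235, adjusted p = 0.0152). Without the total libraries with over 19% of reads in no feature, the log2 fold change was −0.64 (adjusted p = 0.106). The values of female labelled knockouts given above all lie below those of 5 of the 7 male controls. Slc25a37 was higher in male controls (0.42 ± 0.133, adjusted p = 0.0450) and Slc25a44 lower (−0.27 ± 0.0868, adjusted p = 0.0493), and they lost their calls when any of 10 and 11 of the 14 libraries was left out. The call of Slc25a44 was also lost under all 7 alternatives tried. The labelled-knockout effects and the comparison of sexes share these control libraries.

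Ribosomal and total RNA of the 14 controls differed for most carriers. Of 39 members 29 passed, 18 higher and 11 lower in ribosomal RNA, beside 78.2% of 12546 genes (35.2% higher and 43.1% lower). The direction of small differences depends on the scaling. The median over all genes was −0.10 with TMM and −0.33 with RLE scaling, the members' median was 0.20 and −0.03, and with RLE 16 members were higher and 16 lower. The members' median therefore lay above that of all genes by a like amount under each.

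The 5 members with the largest rise were Slc25a4 (1.29 ± 0.0748), the iron importer Slc25a28 (1.26 ± 0.129), Slc25a11 (1.12 ± 0.0619), Slc25a44 (0.97 ± 0.0914) and the ornithine carrier Slc25a15 (0.86 ± 0.0900), all with an adjusted p of at most 5.09e-13. With all libraries on a common scale, Slc25a4 had 5442, 6358 and 7805 CPM in ribosomal and 2709, 2767 and 2918 CPM in total RNA of female controls. In male controls it had 6220, 6684 and 8007 CPM in ribosomal and 2419, 2685 and 3025 CPM in total RNA. No ribosomal library overlapped a total one. Slc25a4 accounted for 62.2 to 77.4% of all Slc25 counts in ribosomal libraries and 54.2 to 60.6% in total libraries.

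The 5 with the largest fall were Slc25a45 (−2.31 ± 0.365), Slc25a27 (−2.11 ± 0.201), a member related to the uncoupling proteins, the ATP-Mg/phosphate carrier Slc25a24 (−2.09 ± 0.196), the glutathione carrier Slc25a40 (−1.76 ± 0.221) and Slc25a53 (−1.14 ± 0.246), with adjusted p of at most 3.86e-05. Slc25a24 had 0, 5.69 and 16.9 CPM in ribosomal and 15.5, 25.3 and 29.9 CPM in total RNA of female controls. In male controls it had 1.18, 6.79 and 9.63 CPM in ribosomal and 15.8, 27.4 and 44.1 CPM in total RNA. Slc25a45 rests on at most 3 counts in a ribosomal control library. The marker lists of endothelium, matrix, smooth muscle, fat, macrophages and red cells were lower in ribosomal RNA for every marker tested, with medians of −3.09 (matrix) to −1.14 (red cells). The fibre list had a median of 1.43, with 7 of 8 markers higher.

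**Figure D5:**
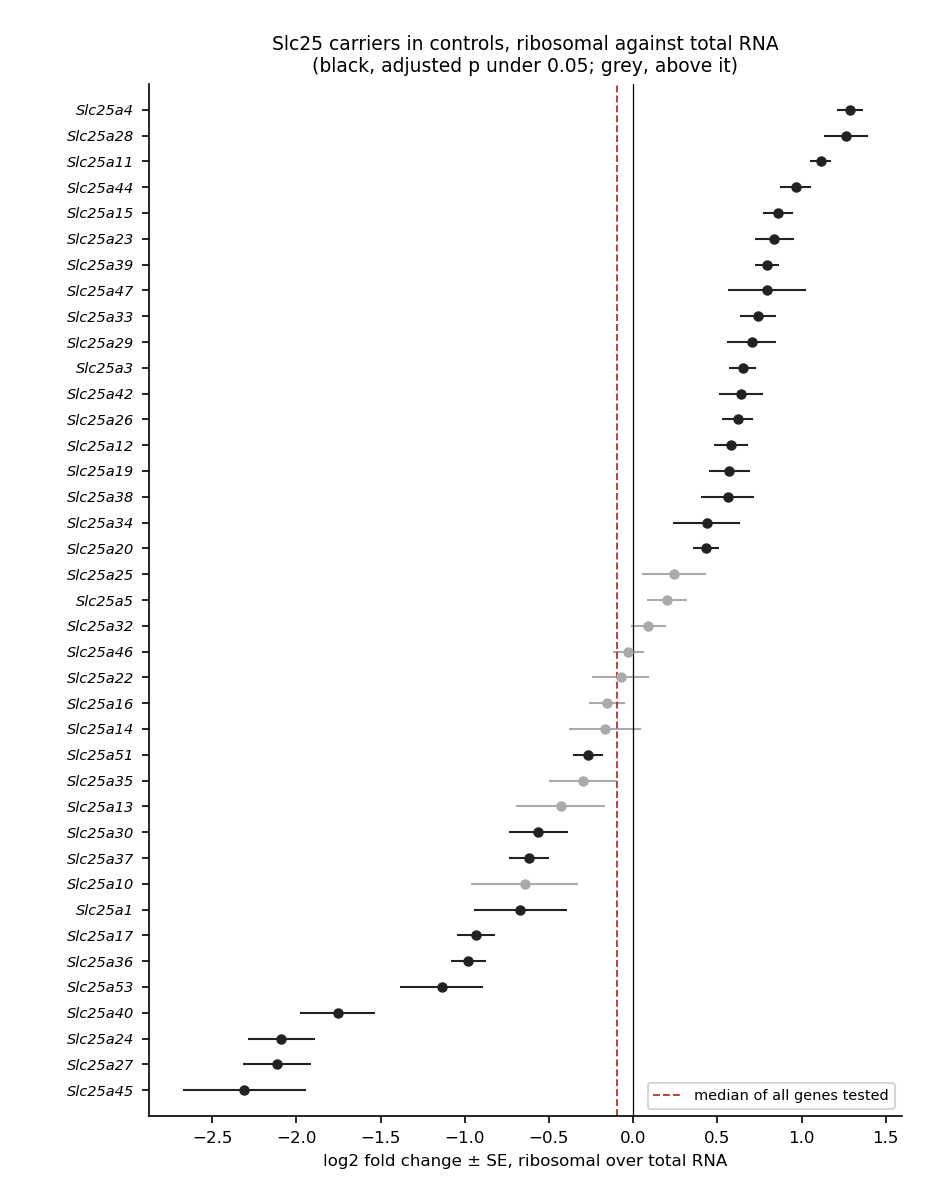
Log2 fold change ± SE of ribosomal over total RNA in the 14 controls for 39 carriers, ordered by size, with members past an adjusted p of 0.05 in black. The dashed line is the median of all genes tested. The energy carriers Slc25a4 and Slc25a11 lie near the top, and Slc25a45, Slc25a27, Slc25a24 and Slc25a40 lie apart at the bottom.

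Counts by role depended in part on the scaling, and differences between roles were not tested. All 4 amino acid carriers tested were higher in ribosomal RNA. None of the 5 members counted as di- and tricarboxylate carriers was higher, and 3 were lower. That group holds Slc25a1 and Slc25a10, but also Slc25a14 and Slc25a27, both related to the uncoupling proteins, and Slc25a30, a transporter of small anions. Its counts are therefore not about di- and tricarboxylate carriers alone. Slc25a27 had the largest fall of that group (−2.11). With RLE scaling 3 of the 4 amino acid carriers were higher, Slc25a38 missing the threshold (0.33, adjusted p = 0.0520). Of the 5 members of the di- and tricarboxylate group 4 were then lower, with Slc25a14 not passing (−0.40, adjusted p = 0.083). Within the ATP-Mg/phosphate group Slc25a24 was lower and Slc25a23 higher (0.84 ± 0.117, adjusted p = 3.32e-09), while Slc25a25 did not pass. Within the mitoferrins Slc25a28 was higher and Slc25a37 lower (−0.62 ± 0.118, adjusted p = 4.90e-06), and within the aspartate-glutamate carriers Slc25a12 was higher (0.58 ± 0.101, adjusted p = 7.62e-07) and Slc25a13 did not pass, although it was lower with RLE scaling (−0.66, adjusted p = 0.0198). The other 5 genes named in these pairs kept their direction and call with RLE scaling, and Slc25a25 did not pass there either.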

How the data were processed

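The deposited table holds counts per gene for 56 libraries, made by the authors from a 3' end kit with unique molecular identifiers. Per the submitters' processing notes, UMI-tools, STAR, HTSeq and the build GRCm39 were used, with DESeq2 1.40.1 in R 4.3.0. Whether counting used strand is not given in the sources used here. Symbols came from a reference table, which matched 52029 of 57010 IDs (97.6% of counts). The 5 summary lines that name no gene stayed out of library sizes.

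Counts were tested with edgeR 4.0.16 (filterByExpr, TMM scaling, quasi-likelihood test) in R 4.3.3, with Benjamini-Hochberg adjustment over all genes tested and a threshold of 0.05. Ribosomal and total RNA were fitted apart, 28 libraries each, and contrasts between them in 1 fit of 56. DESeq2 1.42.0, limma 3.58.1 (voom), RLE scaling, no filter, other sets of libraries and each library left out were alternatives. The script was tested on simulated data. Libraries of 28 mice are the replicates, per the labels. The design text gives 7 male and 7 female mice and the protocol 14 of each, so the number of animals behind each n = 7 is uncertain, and p-values measure the spread between these samples. Ribosomal and total libraries of 1 mouse are paired by the labels: the correlation of their deviations averaged 0.0314 over 28 pairs and passed 0.1 in 10.

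Named genes are all members called in a labelled-knockout comparison, the 10 most abundant members, and the 5 most raised and 5 most lowered in ribosomal against total RNA. Members, lists and rules were chosen with earlier results of these data known. Figures were drawn with matplotlib 3.10.9 in Python 3.11.15. Motifs and sequences came from GRCm38 annotations and no coordinates were converted.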

Additional observations from a re-analysis of the deposited data

Results flagged for a closer look

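A single library stood apart from the other 6 of its group in 16 of 100 groups of 7 examined (by Dixon's ratio of gap to range). The nominal rate of about 1 in 20 holds for independent normal values. These groups are several genes in the same libraries, some on few counts, so the 16 cannot be judged against that rate. Male labelled knockout 2 was the library in 6 of these. In ribosomal RNA, where it was the shallowest at 0.16 M counts, it had 0 CPM of Slc25a17 (others 7.16 to 11.6), 29.2 CPM of Slc25a30 (others 11.3 to 17.1) and 43.8 CPM of Slc25a42 (others 14.7 to 17.5). In total RNA it had 21.7 CPM of Slc25a16 (others 46.1 to 58.9), 61.1 CPM of Slc25a37 (others 39.2 to 47.1) and 7.37 CPM of Slc25a42 (others 13.7 to 16.3).

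Male control 20 was low in ribosomal RNA for Slc25a42 (1.95 CPM, others 14.2 to 19.9), Slc25a44 (29.2 CPM, others 63.4 to 73.9) and Slc25a46 (27.3 CPM, others 58.0 to 77.1), at 0.705 M counts. Female control 19 was low for Slc25a44 in ribosomal RNA (18.4 CPM, others 52.1 to 63.8) and high for Slc25a47 in total RNA (6.18 CPM, others 2.62 to 3.53). Without it the Slc25a44 effect in females was −0.78 (adjusted p = 0.00137).

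Male labelled knockout 6 had 24.2 CPM of Slc25a13 in total RNA (others 5.78 to 12.8). Female labelled knockout 5 had 35.8 CPM of Slc25a25 in ribosomal RNA (others 16.3 to 23.9), and female labelled knockout 9 had 17.3 CPM of Slc25a30 in total RNA (others 21.2 to 23.04). In total RNA, female control 14 had 46.5 CPM of Slc25a37 (others 27.9 to 35.3) and male control 27 had 23.3 CPM of Slc25a17 (others 28.5 to 32.2).

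The effect of the labelled knockout on Slc25a20 in ribosomal RNA differed between females and males by −0.67 on the log2 scale in the test of that difference.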

How the results depend on the processing

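No named result reversed its direction. Of the values recomputed, 842 kept their side of the threshold and 122 lost it. The 842 include the members named for ribosomal against total RNA, none of which ever lost its call, and the uncalled sex difference of Slc25a34. Every lost call was in a comparison of labelled knockouts or of control sexes, so the pooled numbers make these look steadier than they are. In ribosomal RNA, 8 members were called in females, 4 with only the 14 libraries compared and 2 with the share of reads in no feature as a covariate (chosen after seeing the data). In males the count was 2, and 4 with limma-voom. For the sex difference it was 1, and 0 with the covariate. For male against female controls it was 1, against 2 with DESeq2, 7 with limma-voom, 2 in a fit of all 56 libraries and 2 without libraries under 0.75 M counts. In total RNA the count was 7 in females and 4 with all 56 libraries, 4 in males and 2 with all 56 or with the covariate, and 4 between control sexes and 2 with all 56. The ribosomal minus total effect had 0 calls, 1 with limma-voom in females, and 1 with no filter or with DESeq2 in males. With the mouse as a replicate block, 28 members differed between ribosomal and total RNA of controls and 0 in each ribosomal minus total effect, so no count moved by over 1.5 times.

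With 1 library left out, counts ranged from 4 to 10 (females) and 1 to 2 (males) in ribosomal RNA, 1 to 1 for the sex difference and 1 to 3 between control sexes. In total RNA they ranged from 3 to 7, 2 to 6, 0 to 0 and 2 to 4 in the same order. They ranged from 27 to 30 for ribosomal against total RNA, and from 0 to 2 and 0 to 0 for the ribosomal minus total effect in females and males. Female control 15 gave the 4 in ribosomal RNA. In total RNA, female labelled knockout 10 and female control 21 gave 3 each, and male labelled knockouts 13 and 14 and male control 27 gave 2 each. Depth limits ribosomal values most: 0.16 to 3.58 M counts, with Slc25a34 at 0 to 5 counts in female labelled knockouts.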
